A study of Mus musculus with 34 samples.

Results

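The deiodinase genes Dio1, Dio2 and Dio3 encode the selenoenzymes that switch thyroid hormone (TH) on and off inside cells, and their transcripts were followed here in the liver of 34 mouse pups. The genes were found on the array by the RefSeq accession of each probe, and 3 of the 41174 non-control probes, which carry 33541 distinct names, had an accession of a deiodinase. Each gene had 1 probe, printed as 1 spot per array, namely A_51_P403477 for Dio1 (NM_007860), A_51_P208603 for Dio2 (NM_010050) and A_52_P648524 for Dio3 (NM_172119). The antisense transcript of Dio3 (AY283181, named Dio3as by the study and listed as a synonym of Dio3os in RefSeq) was measured by probe A_52_P519191 and is given beside Dio3.

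Thyroxine (T4) is the main hormone released by the thyroid and has to lose 1 iodine from its outer ring to become triiodothyronine (T3), the form that binds the nuclear TH receptors. DIO1, abundant in liver and kidney, can remove iodine from either ring and also clears sulfated hormone. DIO2 removes only outer-ring iodine and supplies T3 within brain, pituitary and brown adipose tissue, and DIO3 removes inner-ring iodine and so inactivates both T4 and T3, mainly in placenta and in fetal and injured tissues. Dio1 is a textbook gene induced by T3, and Dio3 lies in an imprinted domain where an antisense transcript starts close to it and runs the other way.

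All pups were C57BL/6 mice killed on postnatal day (PND) 15. Control pups were given saline by intraperitoneal injection, 4 hours before tissue collection. Hypo pups had dams that drank water with 0.05% methimazole and 1% sodium perchlorate, which block hormone synthesis and iodide uptake, for the last 3 days, and were given saline as well. Hypo+ pups had the same goitrogen exposure followed by 20 µg T4 and 2 µg T3 per 100 g body weight, and hyper pups, never exposed to goitrogen, were given 50 µg T4 and 5 µg T3 per 100 g, both injected 4 hours before collection. The sources differ by 1 day on when the goitrogens began. The hypo+ pups on the arrays are those whose serum T4 was, by the study's methods, near or slightly above control, so this group had been selected on T4. In the study's results the serum T4 of hypo+ pups was significantly higher than that of controls. There were 4 control, 4 hypo, 4 hypo+ and 5 hyper males, and 4 control, 5 hypo, 3 hypo+ and 5 hyper females. Litter is not given in the labels. By the study's methods pups of 1 sex were independent of each other but a male and a female could share a dam, which bears here on the test between the sexes.

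Each array set the liver RNA of 1 pup (Cy5) against a universal mouse reference RNA (Cy3), with no dye swap, so every level below is the loess-normalized log2 ratio of Cy5 to Cy3, in which 1 unit is a doubling. Levels of different probes are not comparable. From 60.8% to 79.4% of probes were well above background in Cy5 on each array. All 7 hepatocyte marker genes measured were well above background in all 34 pups. Pancreatic acinar markers stood more than 1 log2 unit above the median pup in 4 pups (male controls 522 and 832, female control 831 and female hypo+ 543), and adipose markers did so in 2 pups (male hypo 311 and female hyper 499). Summed over 7 acinar markers, the Cy5 signal over background was 1330.5 to 55939.5 in control and 1101 to 2842 in the other males, and 1215 to 11236.5 in control and 1025 to 3662 in the other females. Summed over 6 adipose markers, it was 6585.6 to 18206.7 in hypo and 5559.1 to 36154.3 in the other males, with leptin (Lep) above background in no pup and Ucp1 in 3. The highest male adipose sum, 36154.3, was that of a hyper male, and no hyper male had raised adipose markers by the rule above. In females the adipose sum was 11810 to 14424.05 in hyper pups and 6841.7 to 13413.9 in the others. No gene on a marker list of another cell type passed the test in any of the comparisons with control or of hypo+ with hypo. By the unadjusted limma p, all 7 acinar markers were below 0.05 in hypo and in hyper males against control. In hypo+ males against control 5 were. The median acinar differences were -2.01, -1.96 and -2.00, and 2140, 1224 and 3113 of all 41174 probes were below 0.05. In females 1 of the 7 was below 0.05 between hypo and control, and 0 in the other comparisons. Calls of a deiodinase that are lost without these 6 pups are given beside the results. In whole liver, fewer cells of a type and less RNA per cell cannot be told apart.

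The upstream sequence of the 3 genes is shown first as the DNA next to each start, and no result below was tested against it. Each window, from RefSeq on GRCm38.p6, runs 5′ to 3′ on the strand of the gene from 250 bases before to 50 bases after the annotated start. Capitals mark every match, on either strand, to the loose TH receptor half-site AGGNCA, which includes the consensus half-site AGGTCA. The windows lie at chr4:107307119-107307418 on the minus strand for Dio1, chr12:90738989-90739288 on the minus strand for Dio2 and chr12:110278980-110279279 on the plus strand for Dio3.
Dio1: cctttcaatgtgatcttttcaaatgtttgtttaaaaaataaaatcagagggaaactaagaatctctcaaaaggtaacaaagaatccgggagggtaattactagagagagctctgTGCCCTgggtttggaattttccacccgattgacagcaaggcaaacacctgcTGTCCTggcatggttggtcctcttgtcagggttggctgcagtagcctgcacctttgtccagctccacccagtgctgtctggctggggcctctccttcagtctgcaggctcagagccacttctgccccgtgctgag
Dio2: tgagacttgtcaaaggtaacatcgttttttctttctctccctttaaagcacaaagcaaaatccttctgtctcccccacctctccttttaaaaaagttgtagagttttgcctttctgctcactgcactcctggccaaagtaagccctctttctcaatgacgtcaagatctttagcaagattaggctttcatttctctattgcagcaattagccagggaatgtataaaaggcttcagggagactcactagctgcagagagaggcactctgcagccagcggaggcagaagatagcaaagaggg
Dio3: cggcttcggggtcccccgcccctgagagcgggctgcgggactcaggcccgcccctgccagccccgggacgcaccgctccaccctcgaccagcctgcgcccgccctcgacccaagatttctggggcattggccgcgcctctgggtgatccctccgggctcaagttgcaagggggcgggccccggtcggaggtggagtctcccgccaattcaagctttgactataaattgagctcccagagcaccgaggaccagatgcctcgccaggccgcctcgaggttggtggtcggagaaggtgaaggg
The Dio1 window held 2 loose half-sites, AGGGCA at 136 and AGGACA at 85 bases before the start, both on the complementary strand, so that they read TGCCCT and TGTCCT above. The windows of Dio2 and Dio3 held none, and none of the 3 held AGGTCA itself or a direct repeat of the loose half-site (AGGNCA, any 4 bases, then AGGNCA again). Of 32851 mouse promoter windows of this length, 57.2% held a loose half-site, 16.3% held AGGTCA and 0.253% held the direct repeat. A match is a description of letters, not of binding. The Dio3 window was 69.0% G and C with 25 CG dinucleotides, more than in 81.6% of all windows, whereas those of Dio1 (49.7%, 3 CG) and Dio2 (44.7%, 3 CG) lay near or below the medians of 52.7% and 7. The start of the antisense gene Dio3os was 1162 bases from that of Dio3, on the opposite strand, and its own window held 53 CG, more than 99.5% of windows.

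Dio1, the hepatic enzyme that both activates and clears TH, fell in the hypo pups of both sexes. In control males, the log2 ratio of Dio1 was 5.96 in pup 391, 5.60 in pup 522, 6.20 in pup 832 and 5.60 in pup 881. In hypo males it was 3.69 in pup 311, 4.80 in pup 576, 4.48 in pup 723 and 4.58 in pup 891. Every hypo male thus lay below every control male.

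In control females, Dio1 stood at 6.25 in pup 394, 6.11 in pup 523, 6.42 in pup 831 and 5.86 in pup 882. In hypo females it stood at 3.47 in pup 316, 4.36 in pup 575, 5.07 in pup 721, 4.13 in pup 743 and 4.92 in pup 893. The female groups did not overlap either, and the hypo females were the most variable of the 8 groups for Dio1 (mean 4.39 ± 0.64, SD, n = 5, against 6.16 ± 0.24, SD, n = 4, in controls).

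Hypo minus control, the male difference was -1.46 log2 units (SE 0.20, 95% confidence interval -1.88 to -1.03, limma, adjusted p = 0.0124), or 2.74-fold lower. In females it was -1.77 (SE 0.27, interval -2.34 to -1.21, limma, adjusted p = 0.00923), or 3.42-fold lower. Of all 41174 probes, 0.0971% were called in this comparison in males and 0.155% in females at an adjusted p below 0.05, and the groups did not overlap for 3.08% and 1.77% of probes. Hypo pups were lower in 3 of 3 slides that held both male groups (-1.91 to -1.03) and in 4 of 4 such slides of females (-1.99 to -1.33). Without the 6 pups with raised pancreatic or adipose markers the difference was -1.17 in males (adjusted p = 0.154) and -1.69 in females (adjusted p = 0.0859), so the direction held but the limma call did not. In that setting 0 of all probes were called in males and 27 in females, against 40 and 64 in the main analysis. The Dio1 call also missed the threshold in both sexes with median centring, with the scanner software's log ratio and with only the compared groups in the fit, and in males with background correction by normexp. Median centring left 0 male and 8 female probes called, only the compared groups 0 and 28, the software's ratio 12 and 36, and normexp 9 in males. The Dio1 call held in 7 of the 12 other ways in males and 8 in females. The Cy5 channel alone, after quantile normalization, gave larger called differences, -1.83 in males and -2.08 in females. Mean Cy3 signal was also lower in hypo pups, at 76.25 against 107.25 in control males and 61.2 against 86.5 in control females. Its part in the difference was not tested. The study reported Dio1 as significantly lower in hypo pups of both sexes, on arrays and by RT-qPCR.

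**Figure D1:**
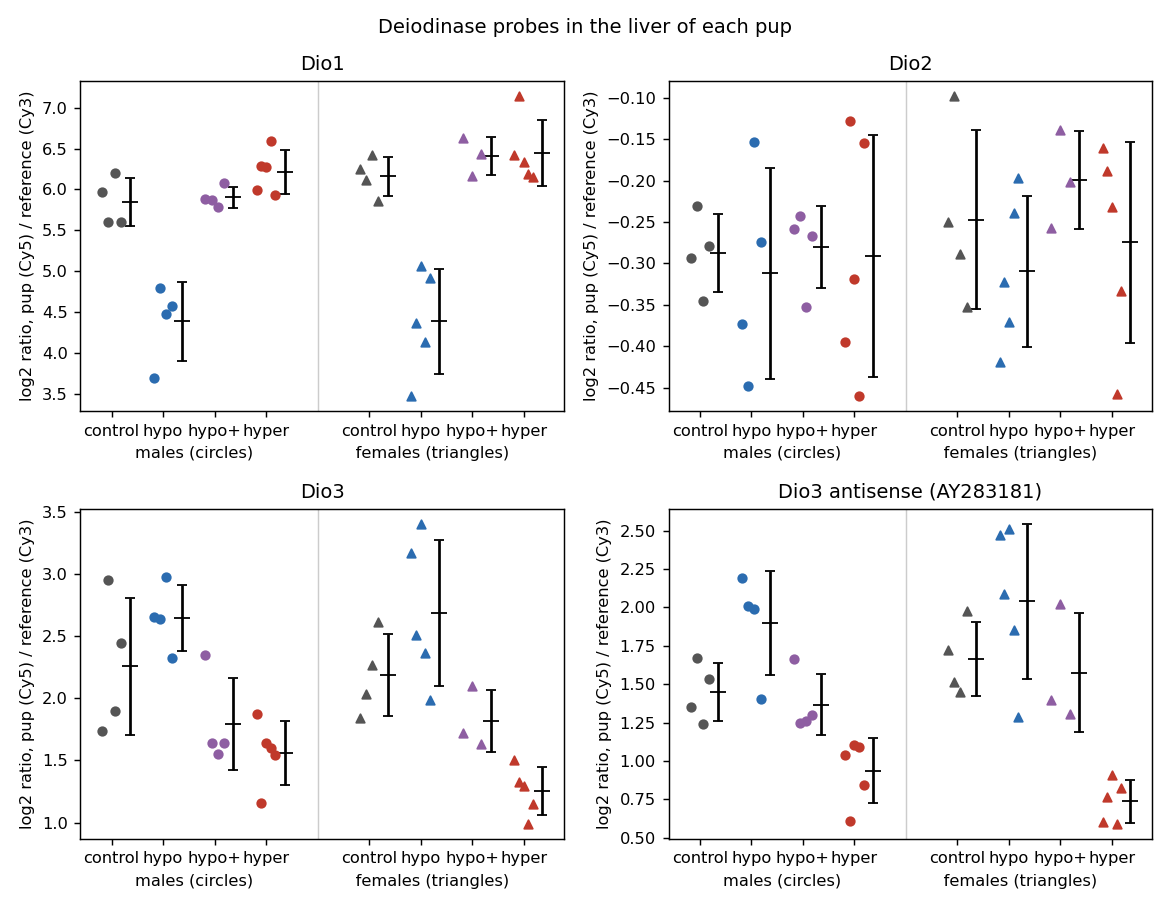
Log2 ratio of pup liver (Cy5) to reference RNA (Cy3) for the probes of Dio1, Dio2, Dio3 and the antisense transcript of Dio3, with 1 point per pup (circles males, triangles females) and bars giving the mean ± SD of each group. The hypo pups lie between 3.47 and 5.07 for Dio1, below all other pups, Dio2 stays between -0.46 and -0.10 in all 34 pups, and Dio3 is lowest in hyper pups; the vertical axes differ between panels and do not start at 0.

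The hormone injection into goitrogen-exposed pups was followed by a higher Dio1 ratio within 4 hours. Hypo+ males were at 5.88 in pup 363, 5.87 in pup 454, 5.78 in pup 546 and 6.08 in pup 761. Hypo+ females were at 6.63 in pup 543, 6.17 in pup 601 and 6.44 in pup 763. No hypo+ pup overlapped with the hypo pups of its sex, and all but pup 763 and pup 543 lay inside the range of the controls of their sex.

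Dio1 was 1.52 higher on the log2 scale in hypo+ than in hypo males (SE 0.20, limma, adjusted p = 0.0015), or 2.86-fold, and 2.02 higher in females (SE 0.29, limma, adjusted p = 0.00201), or 4.06-fold. In this comparison 0.369% of all probes were called in males and 0.556% in females, and the groups did not overlap for 4.61% and 5.06%. The hypo pups enter this comparison and that with control, so both differences share those samples. Against control, Dio1 in hypo+ pups differed by 0.06 in males (interval -0.37 to 0.49, limma, adjusted p = 0.985) and by 0.25 in females (interval -0.40 to 0.90, adjusted p = 1.00), and the groups overlapped in both sexes. These intervals leave room for a difference of up to 0.90 in females. Of all probes, 0.0267% were called between hypo+ and control in males and 0.0219% in females, and 4.12% and 5.88% did not overlap. Only 3 hypo+ females were measured, which limits their mean.

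In hyper pups, the Dio1 ratio lay within the control range or above it. Hyper males were at 5.99 in pup 498, 6.29 in pup 583, 6.27 in pup 696, 6.59 in pup 784 and 5.93 in pup 864. Hyper females were at 6.42 in pup 499, 7.14 in pup 585, 6.33 in pup 621, 6.19 in pup 783 and 6.16 in pup 861. In males 3 of the 5 hyper pups lay above the highest control, in females only pup 585 did, and the groups overlapped in both sexes.

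Dio1 was 0.37 higher in hyper than in control males (SE 0.19, interval -0.03 to 0.78, limma, adjusted p = 1.00) and 0.29 higher in females (SE 0.27, interval -0.28 to 0.85, limma, adjusted p = 0.967), and neither passed the test. By RT-qPCR the study reported Dio1 as significantly higher in hyper pups of both sexes, but not on its arrays. In this comparison 0.0753% of all probes were called in males and 0.158% in females, and the groups did not overlap for 1.27% and 2.54%. Hyper pups were higher in 4 of 4 slides in males (0.32 to 0.39) and 4 of 4 in females (0.17 to 0.72). Both channels of this probe moved with the group. The Cy5 signal before normalization was 8587.5 to 9858 in control males and 10667 to 15760 in hyper males, and 6124.5 to 7833 in control females and 10764 to 13902 in hyper females, with no overlap in either sex. The Cy3 signal of the shared reference also ran higher, at 84 to 125 in control and 93 to 194 in hyper males, and at 80 to 92.5 in control and 70.5 to 163 in hyper females.

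The mean Cy5 signal of Dio1 over local background was 1.42 times that of controls in hyper males and 1.81 times in hyper females, which are larger than the 1.29-fold and 1.22-fold of the normalized ratios. Across the 34 pups the log2 signals of the 2 channels at the Dio1 spot correlated at r = 0.70, against a median of 0.54 over all 41174 probes, and 72.8% of probes had a lower r. All arrays share 1 reference RNA and differ in labelling and scanning. What part the reference signal has in the hyper values was not tested. Taken from the Cy5 channel alone after quantile normalization, the difference between hyper and control was 0.57 in males and 0.68 in females, and it was not called in either sex.

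**Figure D2:**
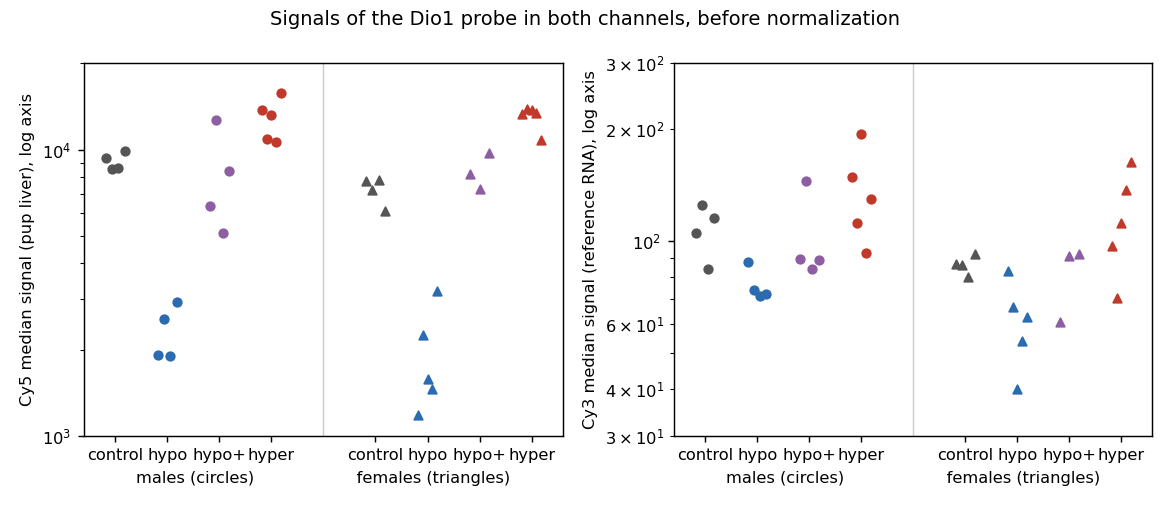
Median spot signal of the Dio1 probe before normalization, in arbitrary scanner units on log axes, in the pup channel (Cy5, left) and the reference channel (Cy3, right), 1 point per pup. Cy5 lies at 1186 to 3211 in hypo pups and at 5128 or more in all others, and Cy3, the same RNA on every array, ranges from 40 to 194 with overlap between most groups.

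Hyper and hypo pups were the extremes of TH supply in this design, and they were compared here after the values were seen. Dio1 was 1.83 higher in hyper than in hypo males (SE 0.19, limma, adjusted p = 5.14e-05) and 2.06 higher in females (SE 0.25, limma, adjusted p = 0.000131), or 3.55-fold and 4.17-fold. No hyper pup overlapped with a hypo pup of its sex. Of all probes, 1.39% were called between hyper and hypo in males and 2.5% in females, and 3.88% and 3.47% did not overlap. Hyper and hypo+ pups differed in Dio1 by 0.31 in males (interval -0.09 to 0.72, adjusted p = 0.668) and 0.04 in females (interval -0.58 to 0.65, adjusted p = 0.988), with 0.00729% of male and 0.0923% of female probes called and 2.81% and 5.83% not overlapping. By its mean, the Dio1 ratio was lowest in hypo, then control, hypo+ and hyper in both sexes. Control and hypo+ males changed places with median centring (-0.13), as did hypo+ and hyper females with the scanner software's log ratio (-0.13), and these neighbours did not differ beyond their spread.

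Dio2, the outer-ring deiodinase of brain and brown fat, gave a signal close to background in liver, and its ratios overlapped in all groups. Its Cy5 signal was 93 to 188, over a local background of 75 to 89, and was well above background in 33 of 34 pups, the exception being a hypo female. The log2 ratio ran from -0.35 to -0.23 in control males, -0.45 to -0.15 in hypo males, -0.35 to -0.24 in hypo+ males and -0.46 to -0.13 in hyper males. In females it ran from -0.35 to -0.10 in controls, -0.42 to -0.20 in hypo, -0.26 to -0.14 in hypo+ and -0.46 to -0.16 in hyper pups. All groups overlapped with one another in both sexes.

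The largest Dio2 difference among the 12 comparisons was 0.11, between hypo+ and hypo females (interval -0.05 to 0.27, limma, adjusted p = 0.855), and no comparison was called. Without background subtraction, the intervals of all 12 comparisons lay within 0.27 of 0 on either side. With the scanner software's background-subtracted log ratio the same comparison gave 0.57 (SE 0.35), hyper minus hypo females 0.35 and hypo minus control females -0.35, none of them called. A signal this near to background limits what the ratio can show. Whether this probe would detect a change of Dio2 in few cells was not tested.

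Dio3, the inactivating deiodinase, ran opposite to Dio1, with its highest ratios in hypo pups and its lowest in hyper pups. In hypo males the log2 ratio of Dio3 was 2.65 in pup 311, 2.64 in pup 576, 2.98 in pup 723 and 2.33 in pup 891. In hyper males it was 1.87 in pup 498, 1.16 in pup 583, 1.64 in pup 696, 1.60 in pup 784 and 1.54 in pup 864. The 2 groups did not overlap in males, where hypo pup 891 and hyper pup 498 came closest.

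In hypo females, Dio3 was at 3.17 in pup 316, 2.51 in pup 575, 3.40 in pup 721, 2.37 in pup 743 and 1.99 in pup 893. In hyper females it was at 1.50 in pup 499, 1.33 in pup 585, 1.30 in pup 621, 0.99 in pup 783 and 1.15 in pup 861. These did not overlap either, and pups 316 and 721 were the highest of all females. Between hyper and hypo, 3.88% of all probes in males and 3.47% in females did not overlap.

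Hyper minus hypo, Dio3 differed by -1.09 in males (SE 0.22, limma, adjusted p = 0.0194), or 2.12-fold lower, and by -1.43 in females (SE 0.22, limma, adjusted p = 0.00121), or 2.70-fold lower. It was lower in 4 of 4 male slides (-1.34 to -0.78) and in 5 of 5 female slides (-2.08 to -0.49). The male call was lost without some single pups, while the difference stayed between -1.19 and -0.98. The limma adjusted p was 0.0506 without hypo pup 576 and 0.0627 without hypo pup 311, where the difference was -1.09 and -1.08. It was 0.0789 without hypo pup 723 and 0.0585 without hyper pup 583. The male call was also lost with normexp, with median centring, with the Cy5 channel alone and with the scanner software's log ratio, of which the last ended the female call too.

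Control pups lay between these extremes for Dio3. Control males were at 1.74 in pup 391, 2.95 in pup 522, 1.90 in pup 832 and 2.44 in pup 881. Control females were at 1.84 in pup 394, 2.03 in pup 523, 2.27 in pup 831 and 2.61 in pup 882. Pup 522, the highest control, is one of the males with raised pancreatic markers. The control males weigh on the comparisons that follow, and the values without pup 522 are given with them.

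Dio3 was 0.39 higher in hypo than in control males (SE 0.24, interval -0.11 to 0.89) and 0.50 higher in females (SE 0.23, interval 0.00 to 1.00), with limma adjusted p of 1.00 in both. Without pup 522 the male difference was 0.62 and without the 6 pups with raised markers 0.56, neither of them called, and the female difference turned to -0.17 with the scanner software's log ratio. Within slides this difference had no constant sign, being above 0 in 1 of 3 male and 3 of 4 female slides. Dio3 in hyper pups differed from control by -0.69 in males (SE 0.22, limma, adjusted p = 0.933) and by -0.93 in females (SE 0.23, limma, adjusted p = 0.206). All 5 hyper females lay below all 4 control females, whereas the male groups overlapped. Of all probes, 2.54% did not overlap between these female groups. Without pup 522 the male difference was -0.46, and without the 6 pups -0.53. Hyper pups were lower in 4 of 4 slides in males and 4 of 4 in females, and the comparison passed the test in neither sex.

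After hormone replacement, Dio3 was at 2.35 in male pup 363, 1.64 in pup 454, 1.56 in pup 546 and 1.64 in pup 761. In hypo+ females it was at 1.72 in pup 543, 2.10 in pup 601 and 1.63 in pup 763. Pup 363 stood apart from the other hypo+ males and overlapped with the lowest hypo male, and pup 601 with the lowest hypo female.

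The difference in Dio3 between hypo+ and hypo was -0.85 in males (SE 0.24, limma, adjusted p = 0.185) and -0.87 in females (SE 0.26, limma, adjusted p = 0.205), and it was below 0 in 2 of 2 slides in each sex. Against control it was -0.46 in males (adjusted p = 0.702), or -0.23 without pup 522, and -0.37 in females (adjusted p = 1.00). None of these passed the test. Hyper pups differed from hypo+ by -0.23 in males (adjusted p = 0.828) and by -0.57 in females (adjusted p = 0.518), where the groups did not overlap. Of all probes, 5.83% did not overlap between these female groups. In both sexes the mean Dio3 ratio followed the order hypo, control, hypo+ and hyper from high to low, and no neighbours in that order differed by the test. The reference signal of Dio3 was well above background in only 11 of 34 pups, so its ratios rest on a dim Cy3 channel. In the pup channel alone, before normalization, the Cy5 signal of Dio3 was 364 to 599 in hypo and 186 to 300 in hyper males, and 323 to 737 in hypo and 146.5 to 233.5 in hyper females.

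**Figure D3:**
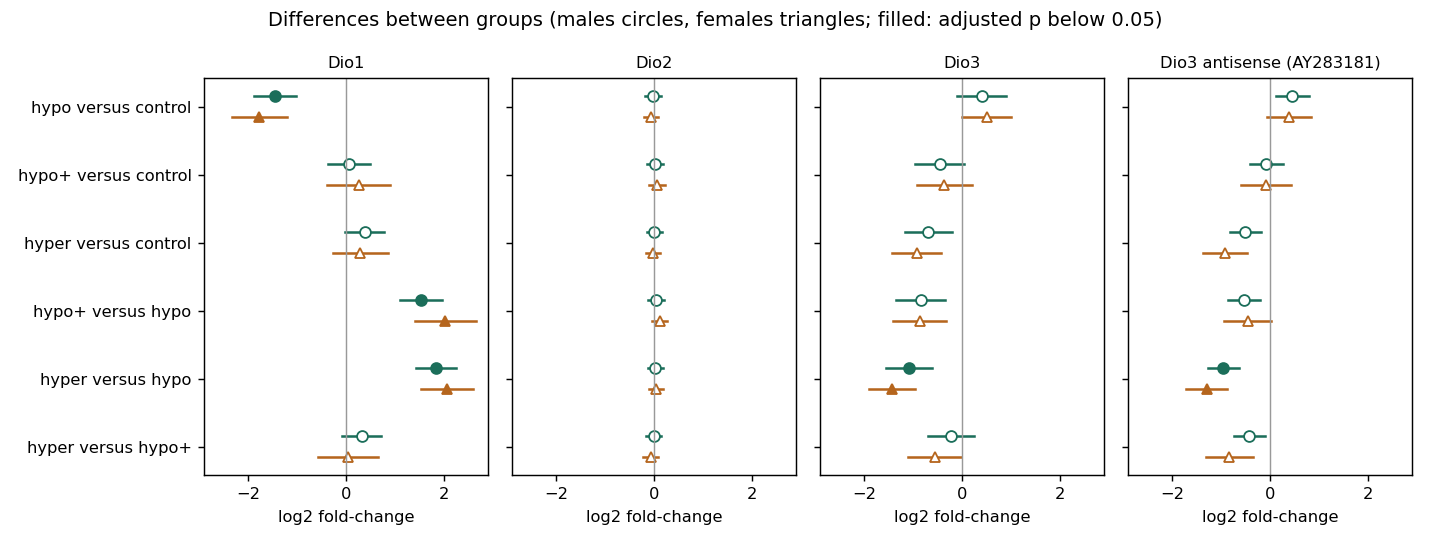
Differences between groups in log2 fold-change for Dio1, Dio2, Dio3 and the antisense transcript of Dio3, with 95% confidence intervals (circles males, triangles females, filled where the limma adjusted p is below 0.05). Dio1 differs between hypo pups and each other group, Dio3 and its antisense are called only between hyper and hypo, and no Dio2 difference is called, with every Dio2 interval including 0.

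The antisense transcript Dio3as, a noncoding RNA that starts near Dio3, varied with Dio3 from pup to pup. In males its log2 ratio was 2.19, 2.01, 1.99 and 1.41 in hypo pups 311, 576, 723 and 891, and 1.04, 0.61, 1.10, 1.09 and 0.84 in hyper pups 498, 583, 696, 784 and 864. In females it was 2.47, 2.09, 2.51, 1.85 and 1.28 in hypo pups 316, 575, 721, 743 and 893, and 0.60, 0.77, 0.91, 0.59 and 0.83 in hyper pups 499, 585, 621, 783 and 861. Neither sex showed overlap between hypo and hyper, and the pups lowest within hypo, 891 and 893, were also the lowest for Dio3. Of all probes, 3.88% in males and 3.47% in females did not overlap between hypo and hyper.

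Hyper minus hypo, Dio3as differed by -0.96 in males (limma, adjusted p = 0.00198) and by -1.30 in females (limma, adjusted p = 0.00108). The male call was lost with the scanner software's log ratio (-0.98, adjusted p = 0.296). Control pups ranged from 1.24 to 1.67 in males and 1.45 to 1.98 in females, above all hyper pups of their sex. Of all probes, 1.27% in males and 2.54% in females did not overlap between hyper and control. The differences in Dio3as of -0.51 (limma, adjusted p = 0.672) and -0.93 (adjusted p = 0.127) were not called. The female difference was called with slide as a fixed block (-0.99, adjusted p = 0.0415) or a random block (-0.95, adjusted p = 0.0424), with only the compared groups (adjusted p = 0.0193), with both sexes in 1 limma fit (adjusted p = 0.0247) and without hypo pup 893 (adjusted p = 0.0364). Hypo+ pups ranged from 1.25 to 1.66 in males and 1.31 to 2.02 in females. Over the 34 pups the ratios of Dio3 and Dio3as correlated at r = 0.90, and at r = 0.79 after the mean of each of the 8 groups was subtracted. The pups share the reference RNA and each pup's pair of values shares an array, so this is given as a description.

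Dio1 and Dio3 correlated at r = -0.71 over the 34 pups but at r = -0.22 within groups, so that the opposite course lay mostly between the groups. Dio1 and Dio2 correlated at r = 0.24, and at 0.11 within groups. Female pups 316 and 721 show the difference, since both had high Dio3 among hypo females while 316 had the lowest and 721 the highest Dio1 of that group.

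**Figure D4:**
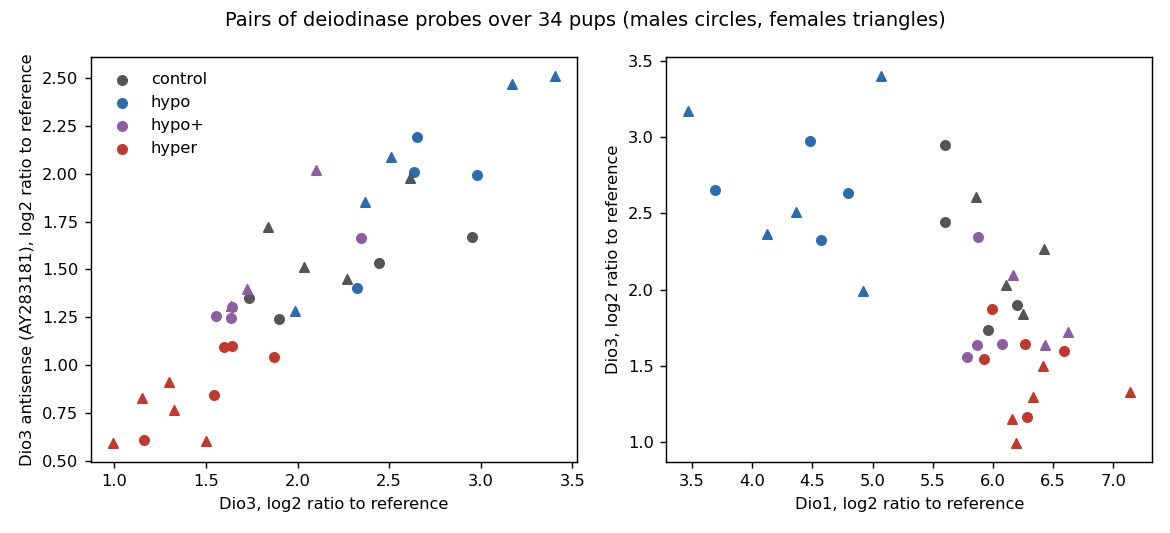
Log2 ratios to the reference of Dio3 against its antisense transcript (left, r = 0.90) and of Dio1 against Dio3 (right, r = -0.71), 1 point per pup, coloured by treatment (circles males, triangles females). On the left the pups of every group lie along 1 band, and on the right hypo pups form a separate cloud at low Dio1.

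No difference between the sexes in the response of a deiodinase was called. The limma test of the sex-by-treatment terms gave adjusted p = 1.00 for Dio1, Dio2 and Dio3 (unadjusted p of 0.587, 0.893 and 0.711), and 0% of the 41174 probes were called, with 350 at an unadjusted p below 0.05. The female response of Dio1 differed from the male one by -0.32 in hypo and 0.19 in hypo+ pups.

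The rest of the TH pathway in liver was described from lists, by the counts of members with any probe called. Established hepatic targets of TH held several called members. Of 13 measured targets, 1 was lower in males with goitrogen alone and 1 in such females, 1 was higher in hyper females, and 3 were called higher in hypo+ than in hypo pups of each sex. Over all probes, the shares called were 0.0971% and 0.155% between hypo and control (males and females), 0.158% between hyper and control females, and 0.369% and 0.556% between hypo+ and hypo. Bcl3, a nuclear coregulator of NF-kappaB, fell by 0.91 in hypo males (limma, adjusted p = 0.0128), was 1.06 higher in hyper females (adjusted p = 0.0351), and was higher in hypo+ than in hypo pups by 1.36 in males (adjusted p = 7.39e-05) and 1.17 in females (adjusted p = 0.0109). Gpd2, the mitochondrial glycerol-3-phosphate dehydrogenase, fell by 0.83 in hypo females (limma, adjusted p = 0.0129) and was higher in hypo+ than in hypo pups by 0.97 in males (adjusted p = 0.0132) and 1.30 in females (adjusted p = 0.000216). Me1, the cytosolic malic enzyme that supplies NADPH for lipid synthesis, was higher in hypo+ than in hypo pups by 0.66 in males (limma, adjusted p = 0.021) and 0.95 in females (adjusted p = 0.000438).

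The called differences of these 3 targets had the sign of those of Dio1. Thrsp, the lipogenic Spot 14 protein, did not pass the test between hypo and control, at -1.55 for males (limma, adjusted p = 0.358) and -1.48 for females (adjusted p = 0.0768). The study, with its own statistic, reported Thrsp as significantly lower in hypo pups of both sexes, on the arrays and by RT-qPCR. The median of the 13 differences between hypo and control was -0.24 for males and -0.39 for females, and 0.22 and 0.32 between hypo+ and hypo, against medians of all probes within 0.01 of 0.

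Among other genes of the pathway, no call was made for the 9 selenoprotein synthesis genes, which insert the selenocysteine of the active site, the 15 measured transport and binding genes, the 7 measured conjugation genes, the 6 genes of deiodinase ubiquitination and turnover, or Dlk1, the measured gene of the imprinted Dio3 domain, in any of the 8 comparisons with control or of hypo+ with hypo. By the unadjusted limma p of any of their probes, up to 3 of the 9, 1 of the 15, 2 of the 7 and 3 of the 6 genes were below 0.05 in any 1 comparison. Counted as single probes and not as genes, 1224 to 3780 of all 41174 were below 0.05. The 3 of 6 turnover genes were those between hypo+ and hypo females, where 3194 of the 41174 probes were below 0.05.

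The probes most like each deiodinase over the 34 pups were sought among 22220 probes well above background in all pups, by Pearson correlation of log2 ratios and as a description only. For Dio1 these were the transcript XM_981410 (r = 0.93), D86232 (0.91), Rfk, the riboflavin kinase (0.90), Nsmf (0.90) and BC024137 (0.90), with r of 0.63, 0.46, 0.44, 0.68 and 0.60 within groups. The most opposite were Egln3, an oxygen-sensing prolyl hydroxylase (-0.84), Dclre1a, a DNA cross-link repair nuclease (-0.84), and Col5a3, a collagen chain (-0.82). For Egln3 the correlation within groups was only -0.05.

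For Dio3 the most alike probe was that of its own antisense transcript, at the r given above, followed by Mknk2, a kinase of the translation factor eIF4E (0.82), Nt5c3, a pyrimidine nucleotidase (0.81), Clpx, a mitochondrial chaperone (0.79), and Btg1, an antiproliferative gene (0.79). The most opposite to Dio3 were AK142275 (-0.89), BC080858 (-0.89) and Slc25a45, a mitochondrial carrier (-0.87). Within groups the correlations of these 7 other than the antisense ranged in size from 0.57 for Clpx to 0.73 for AK142275. Dio3as likewise had Dio3 as its most alike probe, before Ppm1k (0.89), Fbxo21 (0.88), AK017223 (0.88) and Ugp2 (0.84), and had Tmem41b (-0.90), Dnaja1 (-0.90) and AK142275 (-0.89) as its most opposite.

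For Dio2 the likeness was weaker, with Xab2 (0.62), Thumpd3 (0.60), Shprh (0.59), NAP000001-074 (0.58) and AK085087 (0.58) highest and AK006273 (-0.66), Snx22 (-0.65) and Lmna, the nuclear lamin A/C gene (-0.63), lowest. Dio2 had no probe with r above 0.62, whereas Dio1 had probes above 0.90 and Dio3 had 1, that of its antisense transcript.

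**Figure D5:**
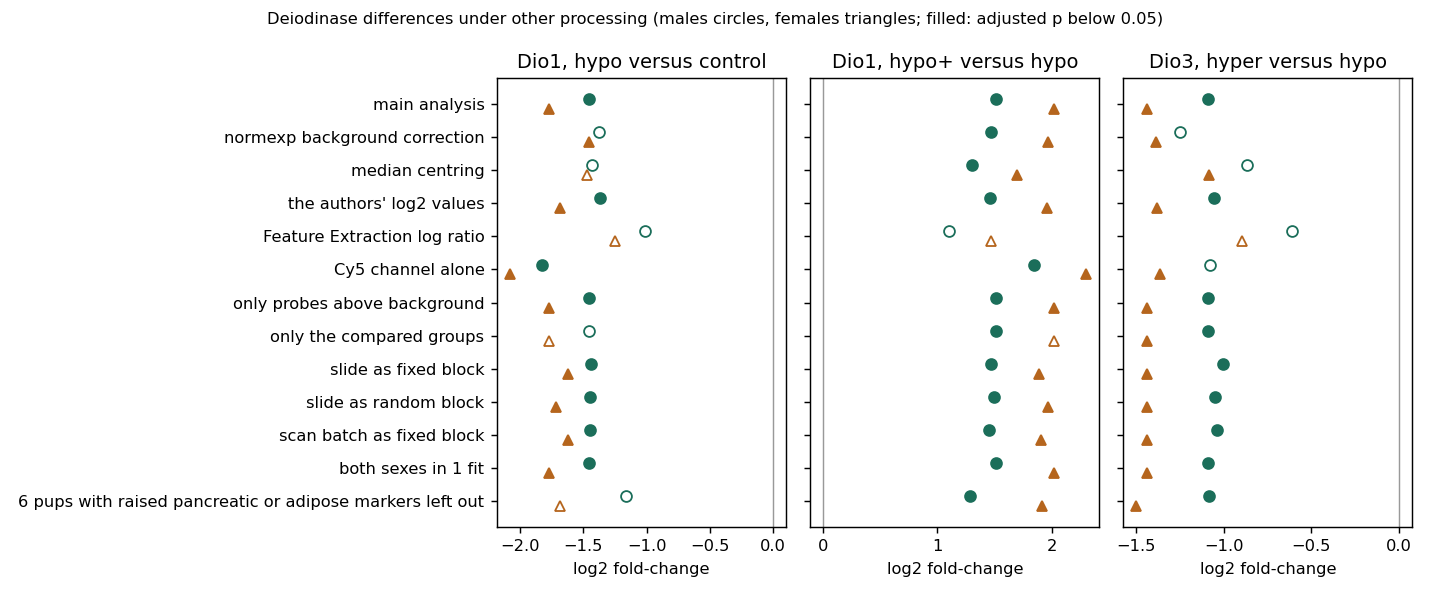
Log2 fold-change of Dio1 between hypo and control and between hypo+ and hypo, and of Dio3 between hyper and hypo, in the main analysis and 12 other ways of processing (circles males, triangles females, filled where the limma adjusted p is below 0.05). Every value keeps the sign of the main analysis, and the scanner software's log ratio gives the smallest differences.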

How the data were processed

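Liver RNA of 34 pups was measured on 2-colour Agilent whole mouse genome arrays on 11 slides in 6 scan batches. The authors deposited scanner files with the median intensity of each channel, flags for outlier spots and spots well above background, and a log10 ratio computed by the software after background subtraction and dye normalization. They also deposited a table taken, by comparison with the scanner values (slope 0.711 to 0.989), to hold log2 ratios after their own loess step. Outlier arrays that the study had removed are not analysed here.

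Control spots (leaving 43379 spots) and flagged spots (77 to 212 per array) were given no weight, the log2 ratios of Cy5 to Cy3 of the median signals were normalized by loess within each array without background subtraction, and spots of a probe were averaged. Of 33541 systematic names, 16806 matched a symbol by RefSeq accession. Each sex was fitted with its 4 groups in limma 3.58.1 (R 4.3.3), with Benjamini-Hochberg adjustment over all 41174 probes and a threshold of 0.05. Sex-by-treatment terms were tested over all arrays. The study used a permuted statistic in place of limma. Alternatives were normexp background correction (offset 50), median centring, the 2 deposited ratios, the Cy5 channel alone, a filter on dim probes, slide or scan batch as a block, only the compared groups, both sexes in 1 fit, the first digits of the animal number as a litter block, and leaving out each pup. Groups were taken from the labels. The scripts were tested on simulated data, and promoters and figures were made with Python 3.11.15. The number of arrays limits the precision.

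Named were all deiodinase probes and AY283181, list genes with a probe past the threshold in any of the 8 comparisons, markers needed to describe a list, and the 5 most and 3 least correlated probes of each. Thrsp was named outside this rule, after its values were seen. The members, lists and rules were chosen with earlier results of these data known. A list of receptors and coregulators is not reported here.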

Additional observations from a re-analysis of the deposited data

Results flagged for a closer look

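Among the 21 sets of 4 or 5 pups tested for the deiodinases (groups of 3 were not), 2 held a pup whose gap to the nearest other pup, divided by the range of the set, passed Dixon's critical value, and chance gives about 1 in 20. Female hyper pup 585 had a Dio1 log2 ratio of 7.143, with a gap of 0.736 of the range. Without this pup, the Dio1 difference between hyper and control females was 0.11 and, as with it, not called. Male hypo+ pup 363 had a Dio3 ratio of 2.348, with a gap of 0.894 of the range. Without it the Dio3 difference between hypo+ and hypo males was -1.04, against -0.85 with it, and it was not called in either case.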

How the results depend on the processing

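No value for Dio1, Dio2 or Dio3 that passed the test changed sign in the 12 other ways of processing (11 for the sexes) or when 1 pup was left out. Among the 465 values across those ways, 18 changed sides of the threshold, the causes of which were not tested. All 18 were losses of Dio1 or Dio3 calls. Most of the 465 values, with every value of Dio2, were not called in the main analysis, so 18 of 465 is not the share of calls lost. For Dio1 between hypo and control, the male difference was -1.380 with normexp (limma, adjusted p = 0.188), -1.433 with median centring (0.0615), -1.014 with the scanner software's log ratio (0.463), -1.456 with only the compared groups (0.144) and -1.165 without the 6 pups with raised markers, a choice made after seeing the data (0.154). The female difference was -1.472 with median centring (0.0633), -1.249 with the software's ratio (0.413), -1.773 with only the compared groups (0.0713) and -1.686 without the 6 pups (0.0859). With only the compared groups the estimate stayed as it was while fewer pups gave the error. For Dio1 between hypo+ and hypo, the software's ratio gave 1.102 in males (0.178) and 1.473 in females (0.163), and the compared groups alone gave 2.023 in females (0.0517). For Dio1 between hyper and hypo, the software's ratio gave 1.344 in females (0.0586). For Dio3 between hyper and hypo, males gave -1.246 with normexp (0.0693), -0.867 with median centring (0.126), -0.609 with the software's ratio (0.247) and -1.078 with Cy5 alone (0.0744), and females -0.894 with the software's ratio (0.241). Leaving out 1 pup at a time moved this male difference from -1.193 to -0.977, with the calls lost that are named above, and changed no other deiodinase call. Over the other ways of processing, probes called between hypo and control numbered 0 to 65 in males (40 in the main analysis) and 8 to 150 in females (64), between hyper and control 2 to 62 (31) and 6 to 201 (65), between hypo+ and control 0 to 30 (11) and 0 to 12 (9), between hypo+ and hypo 6 to 282 (152) and 31 to 327 (229), between hyper and hypo 62 to 962 (571) and 201 to 1670 (1031), and between hyper and hypo+ 0 to 24 (3) and 1 to 89 (38). Leaving out 1 pup gave 5 to 42 for hypo and control males and 27 to 98 for females. The test of the sexes called no deiodinase in any setting. No paired analysis was possible because every animal number occurs once, and blocks were fitted for slide, scan batch and, in the test of the sexes, a litter guessed from the number. Slides as a block kept all calls of Dio1 and Dio3. The dim reference signal of Dio3 and the near-background signal of Dio2 limit what their ratios can show.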
